A study of Homo sapiens with 5 samples.

Results

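The peaks of ACTL6A, BRG1 and NRF2 were mapped over 9 genes that hold back cell division or act downstream of p53, namely MDM2, CDKN1A, CDKN1B, CDKN2A, CDKN2B, RB1, GADD45A, BBC3 and BAX. The genes were chosen by name out of 19689 genes with a protein-coding transcript. All libraries came from untreated SNU638, an established human gastric cancer cell line. The labels give Dulbecco modified Eagle medium for these cells and the study's methods give RPMI medium, both with fetal bovine serum. Binding was profiled by CUT&Tag, in which Tn5 transposase is brought to the antibody and cuts the DNA around it. Antibodies against ACTL6A, BRG1 and NRF2 were used in 1 library each, and normal IgG in 2, here IgG 1 and IgG 2. The peak names of IgG 1 carry the words BRG1 and IgG. No condition was compared, no antibody had a replicate, and the cell line is 1 line, so nothing below could be tested against the spread of replicates and no p-value is given for any difference. In all, 23917 peaks were listed for ACTL6A, 48793 for BRG1, 9045 for NRF2, 11 for IgG 1 and 1746 for IgG 2.

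p53 is a transcription factor that is stabilised by DNA damage and other stress. Its target CDKN1A encodes p21, an inhibitor of cyclin-dependent kinases (CDKs), its targets BBC3 (PUMA) and BAX promote apoptosis through mitochondria, and its target MDM2 encodes the ubiquitin ligase that degrades p53. CDK inhibitors of the INK4 and CIP/KIP families keep the retinoblastoma protein RB1 active, and active RB1 holds E2F factors in check. BRG1 (SMARCA4) is the ATPase of the BAF chromatin remodeling complex, ACTL6A (BAF53A) is an actin-like subunit of it, and NRF2 is the factor that drives antioxidant genes through the antioxidant response element (ARE).

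A peak was assigned to a gene when it shared at least 1 bp with the annotated gene (GENCODE release 44, GRCh38) or the 10 kb to either side. Positions of summits are given from the start of the MANE Select transcript, with negative values upstream. A peak within 1 kb of the 5′ end of any protein-coding transcript of the gene was taken to be at its transcriptional start site (TSS). Strength is given as the rank of a peak in its own list by -log10 q, since enrichment is not comparable between lists, and as a percent of the list, where a small percent is a strong peak. The fragments at a summit and the number the peak caller expected there were recovered from its fold enrichment and p-value.

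The sequences that carry the main results come first, read from GRCh38 on the strand of the gene. At GADD45A the 261 bp of the ACTL6A peak over intron 3, whose opening bases are the end of exon 3, hold a match to the p53 full-site consensus, a pair of decamers up to 13 bases apart. It had 1 mismatch and none in the C and G core of either decamer, and the match is in capitals.
GADD45A intron 3, chr1:67686559-67686819: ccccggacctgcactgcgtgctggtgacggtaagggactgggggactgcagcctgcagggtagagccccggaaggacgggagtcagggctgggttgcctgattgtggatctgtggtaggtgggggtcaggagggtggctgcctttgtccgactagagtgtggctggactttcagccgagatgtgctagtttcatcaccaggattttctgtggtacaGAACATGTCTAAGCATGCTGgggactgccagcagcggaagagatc
At CDKN1A the peaks of all 3 antibodies overlapped in intron 1. The stretch printed holds the summits of BRG1 and ACTL6A, the NRF2 summit lies just 3′ of it, and the capitals mark the 11 bases up to the BRG1 summit. An AP-1 match and an E2F match that lie farther 3′, in both the BRG1 and the NRF2 peak, are shown in capitals in stretches of their own, and a further AP-1 match of the BRG1 peak, 5′ of the NRF2 peak, is not printed.
CDKN1A intron 1, chr6:36680360-36680473: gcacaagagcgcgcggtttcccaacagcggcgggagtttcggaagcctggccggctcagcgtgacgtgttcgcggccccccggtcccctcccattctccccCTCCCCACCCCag
CDKN1A AP-1, chr6:36680524-36680548: gcaggaaacTGACTCAtcactactc
CDKN1A E2F, chr6:36680642-36680665: acacaggcTTTCCCGCggagtggg
At MDM2 the bases from the BRG1 summit in intron 1 onward hold a stretch that matches both the ARE core and AP-1, followed by a p53 match with 2 mismatches, all in capitals.
MDM2 intron 1, chr12:68808846-68808962: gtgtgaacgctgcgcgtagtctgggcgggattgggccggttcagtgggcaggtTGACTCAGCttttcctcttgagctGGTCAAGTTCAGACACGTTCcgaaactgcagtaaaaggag
At CDKN2B the part of the ACTL6A peak upstream of the TSS, where the summits of all 3 antibodies lay, holds 2 GC boxes, in capitals.
CDKN2B upstream, chr9:22009306-22009550: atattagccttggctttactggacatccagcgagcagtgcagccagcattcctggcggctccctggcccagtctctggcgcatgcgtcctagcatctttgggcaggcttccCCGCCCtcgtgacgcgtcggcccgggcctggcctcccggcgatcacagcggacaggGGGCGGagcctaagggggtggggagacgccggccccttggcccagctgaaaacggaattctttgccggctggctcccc

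Every one of the 9 genes had at least 1 BRG1 peak at a TSS, 7 had an ACTL6A peak there and 4 an NRF2 peak. With peaks of a -log10 q of 5 or more alone, the counts were 9, 3 and 2. Of all 19689 genes, 63.5% had a BRG1 peak at a TSS, 38.5% an ACTL6A peak and 28.1% an NRF2 peak. MDM2, CDKN1B and CDKN2B were the 3 members with a TSS peak of all 3 antibodies, a pattern seen in 22.1% of all genes. Over the gene and 10 kb to each side, BRG1 peaks were found at 9 members against 82.7% of all genes, ACTL6A peaks at 8 against 66.9% and NRF2 peaks at 7 against 41.1%. BAX was the member with no ACTL6A peak, and CDKN2A and GADD45A were those with no NRF2 peak. The members' shares lay above the share of all genes in each list, on 9 genes. Their lengths ranged from 3134 bp for GADD45A to 295693 bp for RB1, with a median of 11945 bp against 27330 bp for all genes, and the part of gene length in these shares was not tested.

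Neither IgG list had a peak over any of the 9 genes, nor within 50 kb of them. Among all genes, 0.0356% had an IgG 1 peak in the same window and 1.67% an IgG 2 peak, while 0.0% and 0.152% had one at a TSS. The IgG 2 peak nearest to a member was 1.28 Mb away, at MDM2, and the farthest nearest peak was 11.7 Mb away, at BAX.

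Counting each peak once, 17 ACTL6A, 33 BRG1 and 8 NRF2 peaks lay over the 9 genes. They formed 38 separate sites, of which 19 were BRG1 alone, 5 ACTL6A alone and 1 NRF2 alone. BRG1 and ACTL6A met at 6 sites, all 3 antibodies at 5, and BRG1 with NRF2 and ACTL6A with NRF2 at 1 each. The members had a median of 4 BRG1 peaks against 2 for all genes, 2 ACTL6A peaks against 1, and 1 NRF2 peak against 0. The best TSS peaks of the members had a median rank at 26.1% of the list for BRG1, 30.3% for ACTL6A and 57.9% for NRF2, against 18.8%, 20.7% and 41.8% for all genes with such a peak. Each member thus had BRG1 at 1 or more of its starts, and 8 of the 9 had it at the MANE Select start. Their usual best TSS peak was weaker than the usual gene's in all 3 lists.

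**Figure D1:**
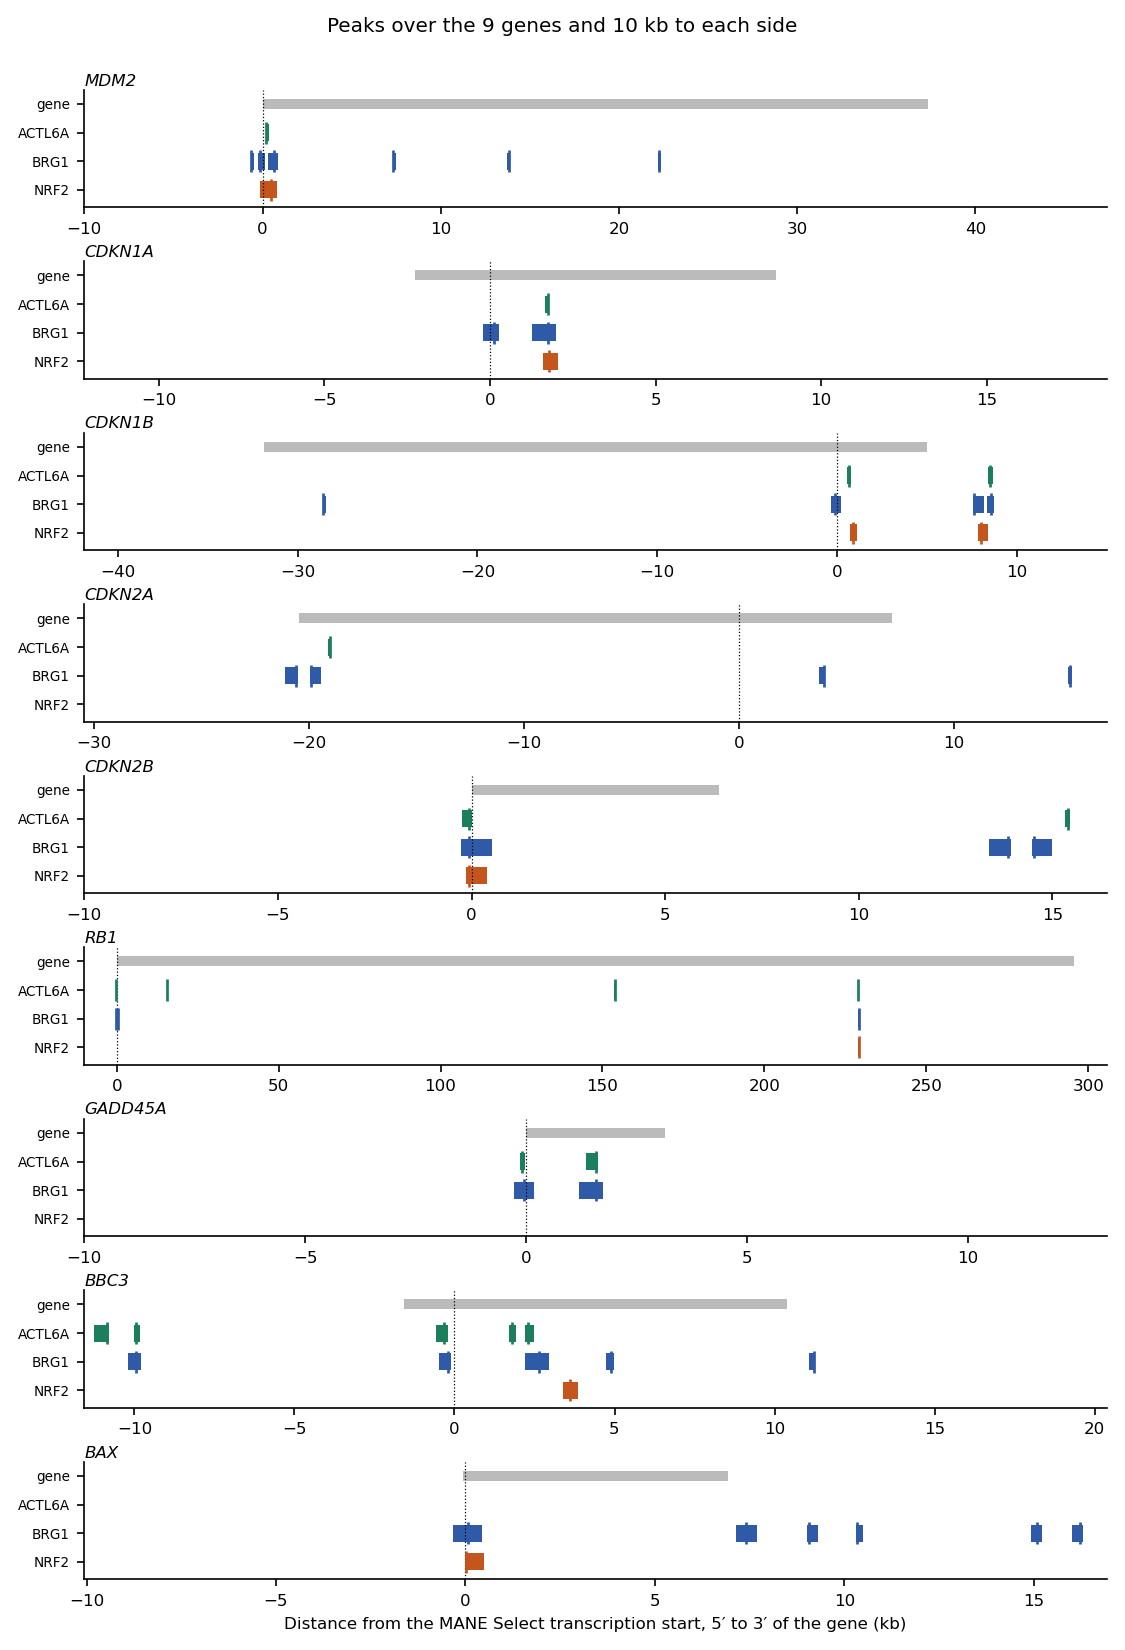
Peaks of ACTL6A, BRG1 and NRF2 (coloured bars, with a vertical tick at the summit) over each of the 9 genes and 10 kb to each side, as distance in kb from the MANE Select start, with the annotated gene as a grey bar and a dotted line at 0. BRG1 has 33 peaks and at least 1 at each gene, ACTL6A is missing at BAX, and NRF2 is missing at CDKN2A and GADD45A; CDKN2A and CDKN2B share 3 peaks because their windows overlap.

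MDM2 (ENSG00000135679, chromosome 12, plus strand, 68808177 to 68845544) encodes the ligase that marks p53 for degradation, and is itself a p53 target through a second promoter in intron 1. It had 1 ACTL6A peak, 6 BRG1 peaks and 1 NRF2 peak. Of the BRG1 peaks, 3 lay at its starts, with summits at -637, -170 and 669 bp. The one at -170 bp was the strongest of these, with 39 fragments against 2.95 expected and rank 4140 (8.48% of the list). The one at 669 bp, in intron 1 and 156 bp from another annotated start of MDM2, had 29 fragments against 2.92 expected and rank 8510 (17.4%). The NRF2 peak was 924 bp wide and overlapped 63.5% of the former and 91.1% of the latter, with its summit at 491 bp, 25 fragments against 4.44 expected and rank 2621 (29.0%). The ACTL6A peak, with its summit at 211 bp in exon 1, rested on 5 fragments against 0.554 expected and ranked 18942 (79.2%). So BRG1 had a peak at both promoters of MDM2, at 8.48% and 17.4% of its list. The median best TSS peak of all genes with one lay at 18.8%. NRF2 had 1 broad peak that overlapped both of these BRG1 peaks, and ACTL6A was near the weak end of its list.

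The strongest BRG1 peak of MDM2 was away from its starts. It lay in intron 8 with its summit at 22230 bp, 28 fragments were found against 0.959 expected, a fold enrichment of 14.8, and it ranked 3777 (7.74%). The summit was 2289 bp from the start of another annotated gene, ENSG00000256325, and 21181 bp from the nearest start of MDM2. No ACTL6A or NRF2 peak overlapped this BRG1 peak. Its 172 bp had a GC content of 44.2%, the lowest of the 33 BRG1 peaks, and are shown because BRG1 stood there alone, with the 21 bases round the summit in capitals.
MDM2 intron 8, chr12:68830349-68830520: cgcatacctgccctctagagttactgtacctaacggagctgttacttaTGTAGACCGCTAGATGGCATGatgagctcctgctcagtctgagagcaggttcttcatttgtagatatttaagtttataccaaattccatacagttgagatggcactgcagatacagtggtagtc
The other BRG1 peaks inside the gene were weak, with 5 fragments in intron 3 at 7314 bp (rank 41371, 84.8%) and 7 in intron 5 at 13816 bp (rank 28848, 59.1%).

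CDKN1A (ENSG00000124762, chromosome 6, plus strand, 36676460 to 36687337) encodes p21, which stops CDKs after p53 is activated. It had 1 ACTL6A, 2 BRG1 and 1 NRF2 peak, and its strongest site was in intron 1 and not at its TSS. There the summits of BRG1 at 1757 bp, ACTL6A at 1758 bp and NRF2 at 1781 bp lay within 24 bp of each other. BRG1 had 44 fragments against 4.04 expected (rank 4089, 8.38%), ACTL6A 9 against 0.763 (rank 7522, 31.5%) and NRF2 26 against 5.21 (rank 2959, 32.7%). The whole 147 bp ACTL6A peak was inside both other peaks. At the TSS itself only BRG1 had a peak, with its summit at 107 bp, 27 fragments against 3.93 expected and rank 12716 (26.1%). That summit was 262 bp from the start of DINOL, a long noncoding RNA gene beside CDKN1A. CDKN1A thus counted among the members without an ACTL6A or NRF2 peak at a TSS, although both had a peak in intron 1, whose nearest edges were 1639 bp and 1595 bp from a start.

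CDKN1B (ENSG00000111276, chromosome 12, plus strand, 12685498 to 12722369) encodes p27, the CIP/KIP inhibitor that restrains cyclin E with CDK2 in resting cells. All 3 antibodies had a TSS peak, but at different places. The BRG1 summit was at -99 bp, with 16 fragments against 1.41 expected and rank 14834 (30.4%). ACTL6A peaked at 658 bp in the coding part of exon 1, with 5 fragments against 0.359 expected and rank 14971 (62.6%). NRF2 peaked at 898 bp in the same exon, with 13 fragments against 2.97 expected and rank 7861 (86.9%). The ACTL6A and NRF2 peaks shared 9 bp and neither reached the BRG1 peak, so the TSS peaks of the 3 antibodies did not mark 1 common site. The bases from 20 upstream of the BRG1 summit to the TSS are shown because they hold an ARE core match on the opposite strand, in capitals.
CDKN1B upstream, chr12:12717249-12717367: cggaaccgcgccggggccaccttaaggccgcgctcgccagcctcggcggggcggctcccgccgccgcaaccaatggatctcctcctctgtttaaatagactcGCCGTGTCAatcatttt
Downstream, 2 BRG1 peaks and 1 each of ACTL6A and NRF2 had summits nearer to the start of APOLD1, and a weak BRG1 peak at -28573 bp had 3 fragments against 0.271 expected.

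CDKN2A (ENSG00000147889, chromosome 9, minus strand, 21967752 to 21995301) encodes p16, an INK4 inhibitor of CDK4 and CDK6, and, from another exon 1 farther upstream, ARF, which blocks MDM2. It had 1 ACTL6A peak, 4 BRG1 peaks and no NRF2 peak. The stronger peaks lay on the ARF side. BRG1 summits at -20594 bp (18 fragments against 1.81 expected, rank 14489, 29.7%) and at -19917 bp (18 against 1.92, rank 14987, 30.7%) were 150 bp and 363 bp from the nearest start of CDKN2A. The former was also 31 bp from the start of another annotated gene, ENSG00000266446. The latter was 4 bp from the start of CDKN2B-AS1, the antisense long noncoding RNA known as ANRIL. At both summits, signal of the neighbouring starts cannot be told apart. ACTL6A had a summit at -19038 bp, 497 bp from a start, with 6 fragments against 0.479 expected and rank 12086 (50.5%).

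At the MANE Select start of CDKN2A, which makes p16, no list had a peak within 1 kb. The BRG1 peak nearest to it, at 3940 bp in exon 2, had 3 fragments against 0.271 expected and rank 45106 (92.4%), and counted as a TSS peak only through a transcript that starts farther 3′. A BRG1 peak at 15406 bp had the same values. The BRG1 peak at -19917 bp holds a match to the E2F sequence, shown in capitals in 60 bases on the strand of CDKN2A, where it reads as the reverse complement.
CDKN2A ARF start, chr9:21994645-21994704: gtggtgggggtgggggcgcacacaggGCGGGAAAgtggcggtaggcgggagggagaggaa

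CDKN2B (ENSG00000147883, chromosome 9, minus strand, 22002903 to 22009305) encodes p15, the INK4 inhibitor that responds to TGF-beta. Of the 3 genes with a TSS peak of all antibodies, its summits were the closest together. Those of ACTL6A at -63 bp, BRG1 at -68 bp and NRF2 at -70 bp lay within 7 bp. BRG1 had 33 fragments against 1.75 expected, a fold enrichment of 12.4 and rank 3984 (8.17%). ACTL6A had 13 against 0.479, a fold enrichment of 9.47 and rank 2136 (8.93%), the best rank of any ACTL6A peak at a member's TSS. NRF2 had 21 against 2.49 and rank 2045 (22.6%), the best of the NRF2 peaks over the members. The NRF2 peak lay wholly inside the BRG1 peak, and so did the ACTL6A peak. The other ACTL6A peak and the other 2 BRG1 peaks in its window were those of the ARF side of CDKN2A.

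RB1 (ENSG00000139687, chromosome 13, plus strand, 48303744 to 48599436) encodes the retinoblastoma protein. ACTL6A and BRG1 met upstream of its TSS, with summits at -278 bp and -253 bp. ACTL6A had 8 fragments there against 0.471 expected (rank 6552, 27.4%) and BRG1 12 against 0.644 (rank 14935, 30.6%). Both summits were within 16 bp of the start of RB1-DT, a divergent long noncoding RNA, and the shared bases therefore belong to both genes' starts. A second BRG1 peak covered the coding part of exon 1 with its summit at 248 bp, 10 fragments against 0.63 expected and rank 18771 (38.5%). NRF2 had no peak at the TSS of RB1. The 283 bp shared by ACTL6A and BRG1 hold an ARE core match, in capitals, as did 11.9% of all ACTL6A and 16.1% of all BRG1 peaks.
RB1 upstream, chr13:48303379-48303661: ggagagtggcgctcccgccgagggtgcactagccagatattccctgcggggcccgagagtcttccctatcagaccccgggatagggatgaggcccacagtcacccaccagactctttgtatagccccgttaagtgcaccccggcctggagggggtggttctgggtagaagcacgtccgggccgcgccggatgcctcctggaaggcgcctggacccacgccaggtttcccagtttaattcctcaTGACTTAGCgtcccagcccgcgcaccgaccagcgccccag
Inside the gene, ACTL6A had weak peaks of 3 fragments in intron 2 at 15659 bp (rank 19218, 80.4%) and 5 in intron 19 at 153753 bp (rank 9290, 38.8%). The only NRF2 peak over RB1, at 229188 bp, lay at the start of the neighbouring gene RCBTB2, where ACTL6A and BRG1 also had peaks.

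GADD45A (ENSG00000116717, chromosome 1, plus strand, 67685201 to 67688334) encodes a stress protein that acts in growth arrest and DNA repair, and its intron 3 is a known place of p53 response. It had the strongest BRG1 peak of the 9 genes at its TSS. The summit at -47 bp had 80 fragments against 5.96 expected, an enrichment of 11.6-fold and a -log10 q of 55.9, and it ranked 746 of 48793 (1.53%). ACTL6A had a summit 42 bp away at -89 bp, with 13 fragments against 0.853 expected and rank 3462 (14.5%). The ACTL6A peak is shown with the 21 bases round the BRG1 summit in capitals.
GADD45A upstream, chr1:67685052-67685180: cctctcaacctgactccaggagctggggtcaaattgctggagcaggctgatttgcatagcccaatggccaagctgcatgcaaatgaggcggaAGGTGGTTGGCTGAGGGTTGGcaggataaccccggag

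The other site of GADD45A, in intron 3, is the one whose sequence was given above. The nearest edge of its BRG1 peak was 1000 bp from a start, so by the 1 kb rule that peak also counted as a TSS peak. The ACTL6A peak there, at 1154 bp, did not. BRG1 had its summit at 1574 bp, with 41 fragments against 5.95 expected and rank 7654 (15.7%), and ACTL6A at 1572 bp, with 11 against 0.808 and rank 4929 (20.6%). The centre of the p53 match, at 1583 bp, was 9 bp from the BRG1 summit and 11 bp from the ACTL6A summit. NRF2 had no peak over GADD45A or in the 10 kb to either side.

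BBC3 (ENSG00000105327, chromosome 19, minus strand, 47220822 to 47232766) encodes PUMA, which neutralises the BCL2-like survival proteins. It had 5 ACTL6A peaks, 5 BRG1 peaks and 1 NRF2 peak, the most ACTL6A peaks of the members. At the TSS, BRG1 had its summit at -206 bp with 72 fragments against 8.51 expected, ranking 2129 (4.36%). ACTL6A had its summit at -320 bp with 14 against 2.07, ranking 7253 (30.3%). Next to GADD45A, this was the strongest BRG1 peak at a member's TSS.

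Far upstream of BBC3, at -9961 bp, BRG1 and ACTL6A had their summits on the same base. That base was 3174 bp from the start of another annotated gene, ENSG00000289915, and 8394 bp from the nearest start of BBC3. BRG1 had 42 fragments there against 4.6 expected (rank 5414, 11.1%) and ACTL6A 11 against 1.47 (rank 9154, 38.3%). The 197 bp of the ACTL6A peak are shown with GC boxes in capitals.
BBC3 far upstream, chr19:47241028-47241224: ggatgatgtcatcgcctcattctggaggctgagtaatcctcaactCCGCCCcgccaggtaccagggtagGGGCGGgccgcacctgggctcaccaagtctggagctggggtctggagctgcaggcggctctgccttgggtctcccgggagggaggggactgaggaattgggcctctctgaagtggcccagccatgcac
A further ACTL6A peak at -10874 bp was its best-ranked one over BBC3 (14 fragments, rank 4945, 20.7%) and overlapped no BRG1 peak. The summit of that peak was 2261 bp from the start of ENSG00000289915 and 9307 bp from the nearest start of BBC3. In the introns, BRG1 had summits at 2652 bp (46 fragments against 9.69 expected, rank 10226, 21.0%) and 4888 bp (52 against 7.77, rank 5574, 11.4%). ACTL6A had summits at 1793 bp (13 against 2.07) and 2286 bp (10 against 2.11). The NRF2 peak of BBC3 lay in intron 2 at 3617 bp, overlapped neither of the others and was near the weak end of its list, with 22 fragments against 7.66 expected and rank 8311 (91.9%).

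BAX (ENSG00000087088, chromosome 19, plus strand, 48954815 to 48961798) encodes the protein that opens the mitochondrial outer membrane in apoptosis. It had 1 BRG1 peak at its TSS, with its summit at 78 bp, 17 fragments against 1.65 expected and rank 14913 (30.6%). The NRF2 summit was at 18 bp, with 12 fragments against 3.02 expected and rank 8750 (96.7%), among the weakest peaks of the NRF2 list. ACTL6A had no peak over BAX or in the 10 kb to either side. Both peaks hold 2 overlapping p53 matches with 2 mismatches each in intron 1, shown in capitals as 1 stretch.
BAX intron 1, chr19:48955181-48955252: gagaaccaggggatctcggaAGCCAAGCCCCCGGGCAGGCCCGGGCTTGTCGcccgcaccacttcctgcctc
The matches were centred at 336 bp and 347 bp, 258 bp and 269 bp from the BRG1 summit. The other 5 BRG1 peaks in the window of BAX had their summits nearer to the starts of FTL or GYS1 than to that of BAX. Of these, the summits at 7416 bp and 9065 bp were nearer still to another annotated gene, ENSG00000267898. Its start was 1684 bp and 35 bp away from them.

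The number of fragments sets how firmly each peak stands. Over the members the median number of fragments per summit was 9 in the ACTL6A list, 24 in the BRG1 list and 19 in the NRF2 list, against 6, 10 and 17 over the whole lists. Of the 33 BRG1 peaks, 3 had 3 fragments each, as did 1 of the 17 ACTL6A peaks. A gene without a peak in a list is a gene with no peak called at this depth, and absence of the protein was not shown. The median width was 254 bp for ACTL6A, 410 bp for BRG1 and 488.5 bp for NRF2.

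Of the 17 ACTL6A peaks, 11 overlapped BRG1 by 1 bp or more, beside 49.8% of all ACTL6A peaks. The count was 3 when 50% of both peaks had to be shared, and 6 when both lists were limited to a -log10 q of 5 or more. The 11 pairs of summits were a median of 42 bp apart and ranged from 0 bp at BBC3 to 458 bp at MDM2, and the median over all pairs in the genome was 65 bp. The closest pairs were those of BBC3 at -9961 bp, CDKN1A in intron 1 (1 bp), GADD45A in intron 3 (2 bp) and CDKN2B at the TSS (5 bp). The overlap was loose at MDM2, where the peaks shared 53 bp of a 157 bp ACTL6A peak.

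Of the 8 NRF2 peaks, 6 overlapped a BRG1 peak, beside 66.2% of all NRF2 peaks, and 6 overlapped an ACTL6A peak, beside 49.8%. The latter count was 1 when 50% of both peaks had to be shared, and 2 when both lists were limited to a -log10 q of 5 or more. The NRF2 peaks overlapping neither BRG1 nor ACTL6A numbered 1, that of BBC3. Summits of NRF2 and BRG1 were within 24 bp at CDKN1A, CDKN2B and the RCBTB2 start beside RB1. Between NRF2 and ACTL6A they ranged from 7 bp at CDKN2B to 498 bp near APOLD1. At CDKN1B the 2 overlaps of NRF2 with ACTL6A were 9 bp and 5 bp long, so they met the 1 bp rule only at their edges.

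The p53 consensus was searched over the 9 windows, which hold 604428 bases, of which 16540 (2.74%) were in a peak of the 3 antibodies. With at most 1 mismatch, 8 matches were found, and the one in GADD45A intron 3 was the only one inside a peak. The 8 are printed to show what lay in and out of peaks, with both decamers in capitals and any bases between them in lower case.
CDKN1A upstream, chr6:36667258-36667277: AGACAAGCCCGGGCAAGGCC
CDKN1A intron 1, chr6:36683843-36683872: AGACTTGCCTttgttgacatTAGCTTGCCC
CDKN1B upstream, chr12:12712381-12712409: AGGCTTGCTTttgttcaggAGACAAGTTT
RB1 intron 1, chr13:48305396-48305422: GGGCATGTTCtgggaaaAGACATGGCT
RB1 intron 17, 5′ match, chr13:48387905-48387935: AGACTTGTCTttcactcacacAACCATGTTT
RB1 intron 17, 3′ match, chr13:48437031-48437050: AGACAAGTTCATGCTTGCCT
GADD45A intron 3, chr1:67686775-67686794: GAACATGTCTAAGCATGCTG
GADD45A downstream, chr1:67691836-67691856: AGGCATGTTTgGAGCTAGCTT
The matches without a mismatch were those upstream of CDKN1B and downstream of GADD45A, and neither was in a peak. The match downstream of GADD45A was 5071 bp from the nearest BRG1 summit, and the match upstream of CDKN1B was 4874 bp from the nearest one there. Over whole lists, 0.414% of ACTL6A peaks, 0.4% of BRG1 peaks and 0.542% of NRF2 peaks hold a match with at most 1 mismatch.

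Allowing 2 mismatches gave 73 matches in the windows, of which 4 were in a peak. Besides GADD45A they were the match of MDM2, centred at 755 bp and 86 bp from the BRG1 summit, and the overlapping pair of BAX. Peaks with at least 1 such match made up 3.19% of all ACTL6A, 3.5% of all BRG1 and 5.62% of all NRF2 peaks. CDKN1A had a match of this kind at -2256 bp, upstream of the MANE Select start, and it lay 2363 bp from the nearest BRG1 summit, in no peak. No match with at most 2 mismatches was in a peak over BBC3.

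The ARE core was searched as TGACNNNGC, AP-1 as TGANTCA, E2F as TTTCCCGC and the GC box as GGGCGG, each on both strands, and 1 stretch can match both the ARE core and AP-1. The ARE core was in 1 of the 8 NRF2 peaks, that of MDM2, beside 22.7% of all NRF2 peaks. It was in 4 of 17 ACTL6A peaks (11.9% of all) and in 8 of 33 BRG1 peaks (16.1% of all). AP-1 was in 2 NRF2 peaks (10.1% of all), those of MDM2 and CDKN1A, in 5 BRG1 peaks (15.1%) and in 0 ACTL6A peaks (8.8%). GC boxes were in 6 NRF2 peaks (53.5%), 18 BRG1 peaks (34.5%) and 6 ACTL6A peaks (26.2%). E2F matches were in 2 BRG1 peaks (1.28%), 1 NRF2 peak (2.91%) and 0 ACTL6A peaks (0.995%). These counts describe letters in the peaks, and peaks of different lists differ in width.

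Among all genes with TSS peaks of all 3 antibodies, 4352 were compared with each member that had them, by the distance between the log10 ranks of the best TSS peak in the 3 lists. CDKN2B was most like RAD54B, a gene of homologous recombination, at a distance of 0.0433. CDKN1B was most like FAM13B, at 0.0383, and MDM2 was most like JOSD2, a deubiquitinase gene, at 0.0812. The ranks of RAD54B were 2086 for ACTL6A, 3631 for BRG1 and 1989 for NRF2, beside 2136, 3984 and 2045 for CDKN2B. These are likenesses over 3 libraries.

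A wider list of 60 other genes of p53 signalling and the cell cycle was counted in the same way. BRG1 had a TSS peak at 58 (96.7%, Wilson 95% interval 88.6% to 99.1%), ACTL6A at 37 (61.7%, 49.0% to 72.9%) and NRF2 at 33 (55.0%, 42.5% to 66.9%). These intervals treat genes as independent and cover counting error only. The shares of all genes were 63.5%, 38.5% and 28.1%, so the order of the antibodies is that of genes at large. TSS peaks of all 3 antibodies were at 26 of the 60, and at 22.1% of all genes. No IgG peak was at any of their starts.

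The counts by role stand beside shares of all genes of 63.5% for BRG1, 38.5% for ACTL6A and 28.1% for NRF2. All 8 p53 regulators had BRG1 at a TSS, 7 had ACTL6A and 6 NRF2. Of the 22 p53 targets, all 22 had BRG1, 14 ACTL6A and 13 NRF2. Of the 14 cyclins, CDKs and E2F factors, 13 had BRG1, 9 ACTL6A and 6 NRF2. Of the 9 genes of the BCL2 family and apoptosome, 8 had BRG1, 4 ACTL6A and 4 NRF2, and the 5 other CDK inhibitors and pocket proteins had 5, 3 and 3. GADD45B and GADD45G both had BRG1, 1 had NRF2 and 0 had ACTL6A, whereas GADD45A had BRG1 and ACTL6A and no NRF2.

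The highest ranks of the wider list were above the highest of the members in all 3 lists. The wider list holds more genes, so its size alone favours higher extremes, and its usual rank was not compared with that of the members. Its weakest ranks at a TSS lay at 98.1% of the list for ACTL6A, 88.6% for BRG1 and 94.3% for NRF2. ATM, the kinase that senses double-strand breaks, ranked 103 for ACTL6A and 382 for BRG1. RRM2B, a p53-induced subunit of ribonucleotide reductase, ranked 109 for BRG1 and 319 for NRF2, and TP53I3 ranked 114 for BRG1. For ACTL6A the next were CDK4 at 323 and XPC, a nucleotide excision repair gene, at 524, and for NRF2 they were PLK3 at 442 and CDK4 at 1194. BID, which links death receptors to mitochondria, was the gene with no TSS peak in any of the 3 lists.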

How the data were processed

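CUT&Tag peaks of SNU638 cells were analysed from 5 deposited lists. Per the submitters' processing notes, reads were filtered with fastp 0.23.0 and mapped to hg38 with BWA. Each library's peaks were called by the authors on their own with MACS2 (q-value under 0.05), and the caller's control is not given in the sources used here. The deposited fold enrichment is a ratio with a pseudocount of 1. The deposited -log10 p, -log10 q and score are the caller's own values. The lists hold no reads, so depth was judged from the fragments at each summit, taken as the only integer that fits the deposited fold and its Poisson p-value to 0.001 in -log10 units. Such an integer was found for 99.7%, 99.7% and 99.8% of ACTL6A, BRG1 and NRF2 peaks.

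The members, the wider list and the motifs were chosen with earlier results of these data known. All 9 members are named. From the wider list, the 3 genes of highest rank per antibody and up to 6 genes with no TSS peak are named, besides each member's gene of most similar ranks and neighbours nearer to a summit. GADD45B and GADD45G were named after their values were seen, and 1 gene first written in the wider list is not reported here, so its counts are over the 60 genes kept. Counts were set beside the share of all 19689 genes, and no test was made, because no antibody was replicated. Ranks count the peaks of higher -log10 q plus 1. Reference sequences were read from GRCh38, annotated untranslated regions were left out, and the p53 consensus allowed at most 1 mismatch outside the core. As alternatives, only peaks of -log10 q 5 or more or the top 5000 were kept, or the settings were other windows and TSS distances, the MANE Select TSS alone, an overlap of 50% of both peaks, other mismatch limits and peaks shared with IgG left out. The routines were tested on simulated data. Tools were pysam 0.24.0, matplotlib 3.10.9, pandas 2.3.3 and SciPy 1.17.1 under Python 3.11.15, with NumPy 2.4.6.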

Additional observations from a re-analysis of the deposited data

How the results depend on the processing

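Of 62 alternatives to 18 counts, 42 stayed within 1.5 times the value given and 20 moved further. Keeping only peaks with a -log10 q of at least 5 left 7 ACTL6A peaks over 5 members, with 3 members at a TSS, and 4 NRF2 peaks over 4 members, with 2 at a TSS, while all 9 members still had a BRG1 peak at a TSS. Keeping the highest 5000 peaks left 6 ACTL6A peaks over 5 members, with 2 at a TSS, 8 BRG1 peaks with 4 members at a TSS, and 4 NRF2 peaks over 4 members, with 2 at a TSS. Both alternatives remove weak peaks by construction. Overlap of ACTL6A with BRG1 fell to 3 peaks when 50% of both had to be shared and to 6 when both lists were limited to a -log10 q of 5 or more. Overlap of NRF2 with ACTL6A fell to 1 and 2. The p53 matches inside peaks were 0 with no mismatch and 4 with at most 2. Leaving out either IgG library, or peaks shared with IgG, could change nothing over the members, since no IgG peak lay there. These alternatives are among the 42, and their outcome was fixed in advance. No paired analysis was possible because there was no replicate of any antibody.

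The number of fragments limits the ACTL6A results most, since its median peak over the members rests on 9. A gene near another start, as at CDKN2A with CDKN2B-AS1 and RB1 with RB1-DT, cannot be told apart from its neighbour in these lists. Whether IgG 1 or IgG 2 served as the caller's control is not given in the sources used here.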

Other observations

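Several of the stronger peaks in the windows of the 9 genes lay at the starts of neighbours. By the nearest start of a protein-coding gene, 3 of the 17 ACTL6A, 9 of the 33 BRG1 and 2 of the 8 NRF2 peaks belonged to a gene outside the list. At RCBTB2, which lies within the annotated span of RB1, BRG1 had 45 fragments against 1.17 expected, a fold enrichment of 21.2 and rank 977 (2.0%). The NRF2 summit was 3 bp from it, with 17 fragments against 1.71 expected and rank 2359 (26.1%), and ACTL6A had 9 against 0.344 and rank 4020 (16.8%). At APOLD1, 3′ of CDKN1B, ACTL6A had 9 fragments against 0.382 expected and rank 4323 (18.1%), with its summit 63 bp from a coding start. BRG1 had a summit 13 bp from the same start, with 21 against 2.07 and rank 12273 (25.2%). The NRF2 summit was farther off, 561 bp from that start, with 17 against 3.28 and rank 5130 (56.7%). The NRF2 peak shared 5 bp with the ACTL6A peak.

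On the 3′ side of BAX, BRG1 alone had peaks. The strongest was 747 bp from the start of GYS1, the muscle glycogen synthase gene, with 75 fragments against 5.74 expected and rank 943 (1.93%). Another lay 96 bp from the start of FTL, the ferritin light chain gene and a known NRF2 target, with 38 fragments against 7.22 expected and rank 11327 (23.2%). The NRF2 list had no peak at that start within the window of BAX.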
